A study of Mus musculus with 15 samples.

Results

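Cytochrome b5 reductases and the flavoproteins built like them were followed across RNA-seq libraries of sorted mouse β cells that carry or lack Foxo. The members are 6 genes, Cyb5r1, Cyb5r3, Cyb5r4, Cyb5b, Ndor1 and Por, found by their symbol among the 23699 entries of each deposited gene table. All 6 were listed once, had a usable estimate in all 15 libraries and passed the expression filter used for testing. The cells came from islets of control and Foxo knockout mice on a mixed 129JC57BL/6 background. The labels describe the controls as triple heterozygous for FoxO1, 3 and 4, whereas the study calls them wild-type, and the knockouts as lacking all 3 genes. Cre was driven by Rip-cre, which acts in β cells, in 9 libraries and by Pdx-cre, which acts in pancreatic precursors, in 6. Islet cells were sorted for RFP, a red reporter that cre switches on and that stays on in descendants, and then split with aldefluor, a fluorescent substrate of aldehyde dehydrogenase, into ALDH- and ALDH+ cells. The Rip-cre sort is described for mice of 6 months, and the labels give no age. With Pdx-cre the reporter can mark the other pancreatic lineages as well as β cells. Islets came from several mice per genotype, and which mice went into which library is not given in the labels. With Rip-cre there were 2 control ALDH-, 1 control ALDH+, 3 knockout ALDH- and 3 knockout ALDH+ libraries, and with Pdx-cre 1, 1, 2 and 2 in the same order.

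Cytochrome b5 reductases pass electrons from NADH through a bound FAD to cytochrome b5, a small haem protein, which hands them on to enzymes such as fatty acid desaturases and sterol oxidases. Por is the NADPH-dependent counterpart that feeds cytochromes P450, and Ndor1, built on the same plan with FAD and FMN in 1 chain, gives electrons to the cytosolic iron-sulphur assembly machinery. Cyb5r3 is the main membrane-bound reductase of the endoplasmic reticulum and the outer mitochondrial membrane. The study proposed it as a Foxo target from these same Rip-cre ALDH+ libraries, and it named Ndor1 from Rip-cre control and knockout ALDH+ libraries and control ALDH- libraries. Those contrasts are therefore not independent evidence for either gene, whereas the ALDH- knockouts and the Pdx-cre libraries were not used for the choice.

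The 5 reductases share a short FAD-binding motif, shown here because all of them bind FAD through it, and Cyb5b and Cyb5r4 share the haem-binding motif of cytochrome b5. The stretches are coding bases of GENCODE M21 transcripts (GRCm38), 5′ to 3′ on the coding strand, with the codons of the motif in capitals.
Cyb5r3, FAD motif: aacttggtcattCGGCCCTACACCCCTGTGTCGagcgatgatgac
Cyb5r1, FAD motif: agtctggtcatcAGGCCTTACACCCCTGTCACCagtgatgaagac
Cyb5r4, FAD motif: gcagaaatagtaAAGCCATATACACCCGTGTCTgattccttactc
Ndor1, FAD motif: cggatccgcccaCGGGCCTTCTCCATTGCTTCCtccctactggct
Por, FAD motif: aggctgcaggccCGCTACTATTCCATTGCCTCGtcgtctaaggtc
Cyb5b, haem motif: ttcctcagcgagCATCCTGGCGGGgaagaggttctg
Cyb5r4, haem motif: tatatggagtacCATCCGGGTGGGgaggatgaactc
The Cyb5r3 stretch is in exon 4 of 9, at chr15:83161877-83161921 on the minus strand. The Cyb5r1 stretch lies at chr1:134407081-134407125 in exon 4 of 9, plus strand. For Cyb5r4, the FAD stretch is at chr9:87057144-87057188 in exon 12 of 16 and the haem stretch at chr9:87029527-87029562 in exon 3, both on the plus strand. The other 3 cross an intron: exons 9 and 10 of Ndor1 (chr2:25248744-25248946, minus strand), exons 12 and 13 of Por (chr5:135733881-135734029, plus strand) and exons 1 and 2 of Cyb5b (chr8:107150862-107169834, plus strand). The encoded proteins have 301 residues for Cyb5r3, 305 for Cyb5r1, 528 for Cyb5r4, 598 for Ndor1, 678 for Por and 146 for Cyb5b. Cyb5r3 and Cyb5r1 were identical at 61.3% of 292 aligned residues, and Ndor1 and Por at 34% of 586. Cyb5r4, which carries a cytochrome b5 part and a reductase part in 1 chain, was identical to Cyb5r1 at 33.3% of 276 aligned residues.

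Values are FPKM as the authors deposited them, that is fragments corrected for the length of the transcript and the depth of the library, and on this per-length scale levels can be set side by side between genes. Fragments per library, worked out from the width of each confidence interval, came to between 7492220 and 10058043. Over the 15 libraries Cyb5r3 was the most abundant member, with a mean rescaled FPKM of 217 that exceeded that of 98.2% of the 11253 genes tested. It was followed by Cyb5b (70.3), Por (58.4), Cyb5r1 (36.2), Cyb5r4 (11.6) and Ndor1 (6.82). Cyb5r1 exceeded Cyb5r4 in all 15 libraries and Por exceeded Cyb5r1 in 14. Cyb5r3 exceeded Cyb5b in 13, the exceptions being 2 Rip-cre knockout ALDH- libraries with 78.2 against 79.3 FPKM and 70.9 against 98.6 FPKM. Cyb5r4 exceeded Ndor1 in 13 and Cyb5b exceeded Por in 10 of 15. Among neighbours in this ranking, only Cyb5r1 and Cyb5r4 thus kept their order in every library. The spread over libraries also differed between members. The highest library held 5.03 times the FPKM of the lowest for Cyb5r3 and 5.26 times for Ndor1, against 2.19 to 2.59 times for the other 4. The fragments behind these values were 1341 to 7325 per library for Cyb5r3 but only 118 to 532 for Ndor1 and 173 to 450 for Cyb5r4, so the counting error weighs more on the last 2.

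The targeted genes were read first as a check of the genotype labels. Foxo1 was between 12 and 20.1 FPKM in the 5 control libraries and between 0.0925 and 4.24 FPKM in the 10 knockout libraries, with no overlap (log2 fold change -2.57, standard error 0.32, adjusted p = 0.00186, limma). The call was lost without the Pdx-cre control ALDH+ library (-2.60, adjusted p = 0.0529) and with the Pdx-cre libraries alone (-2.80, adjusted p = 0.999). Foxo1 was low under both drivers, at 1.15 to 3.51 FPKM in Rip-cre and 0.0925 to 4.24 FPKM in Pdx-cre knockouts. Foxo3 ranged from 12.7 to 23.0 FPKM in controls and from 9.78 to 30.6 FPKM in knockouts. The Foxo3 log2 fold change was -0.08 (standard error 0.24, adjusted p = 0.969, limma), so Foxo3 did not separate the genotypes. FPKM covers the whole transcript, and the loss of single exons was not tested. Foxo4 was listed at 1.34 FPKM or less everywhere and was not tested. Aldh1a3 was at most 4.09 FPKM in ALDH- and at least 22.1 FPKM in ALDH+ libraries. Of the β-cell markers, Iapp was at 33196 FPKM or more in every library, whereas Mafa was between 0.434 and 13.9 FPKM. Endothelial and stromal markers summed to at most 1.48 FPKM.

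Cyb5r3 had lower values in Foxo knockout than in control cells, fully apart from the controls with Rip-cre and overlapping them with Pdx-cre. In control ALDH- cells Cyb5r3 was at 339 and 319 FPKM in the Rip-cre libraries and 346 FPKM in the Pdx-cre library. Control ALDH+ cells had 291 FPKM with Rip-cre and 339.9 FPKM with Pdx-cre. Control levels thus lay within a narrow range whatever the sort or the driver, with a mean of 327 ± 22.7 FPKM (SD, n = 5). Among the Rip-cre knockouts, ALDH- cells were at 78.2, 138 and 70.9 FPKM. Their ALDH+ counterparts read 91.4, 110.3 and 80.6 FPKM. All 6 lay below all 3 Rip-cre controls, a separation in this direction that 2.03% of tested genes showed. The mean was 95 ± 25.3 FPKM (SD, n = 6) against 316 ± 24.2 FPKM (SD, n = 3) in Rip-cre controls, or 30.1% of the control mean. Of the Pdx-cre knockouts, the ALDH- pair was at 218 and 356 FPKM and the ALDH+ pair at 183 and 283 FPKM. Their mean, 260 ± 76.2 FPKM (SD, n = 4), was 75.9% of the Pdx-cre control mean, and the library at 356 FPKM was above every control.

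**Figure D1:**
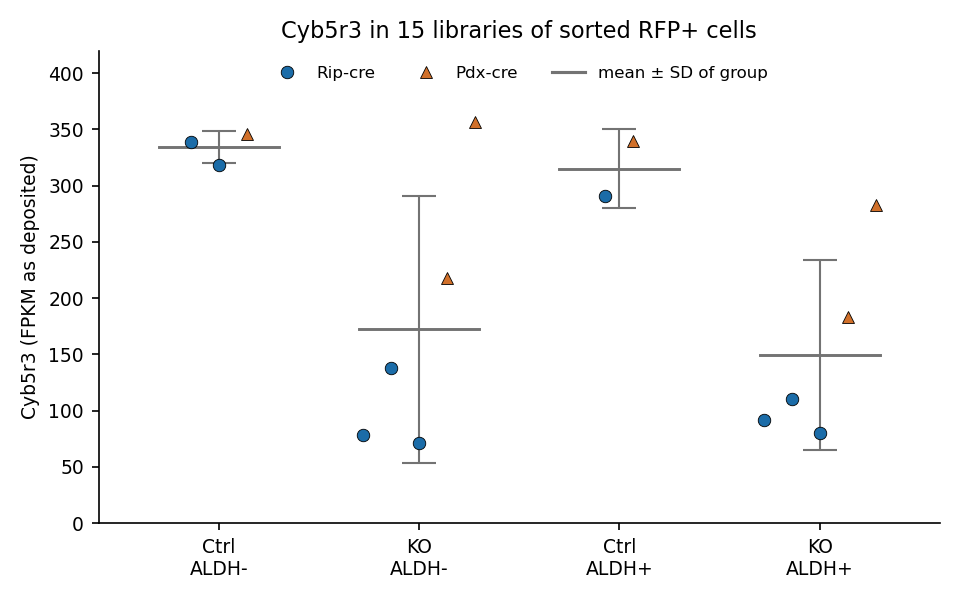
Cyb5r3 FPKM as deposited (linear axis from 0) in each of the 15 libraries, grouped by genotype and ALDH sort. Circles are Rip-cre and triangles Pdx-cre libraries, and grey bars give the group mean ± SD. The 6 Rip-cre knockout libraries sit between 70.9 and 138 FPKM, below all controls at 291 to 346 FPKM, whereas the 4 Pdx-cre knockouts spread from 183 to 356 FPKM.

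Testing used limma on log2(FPKM + 1) after rescaling between libraries, over all 11253 genes and with the driver in the model. All p-values measure the spread between these libraries, since the labels do not say that they came from separate mice. Averaged over both sorts, the Cyb5r3 log2 fold change of knockout over control was -1.19 (standard error 0.23, adjusted p = 0.0866). It did not pass the threshold of 0.05, nor did any other member, in a comparison where 0.116% of genes were called, and it was the only 1 of the 6 at an unadjusted p under 0.05. It did pass with quantile normalization (-1.34, adjusted p = 0.0257) and without the Pdx-cre knockout ALDH- library at 356 FPKM (-1.30, adjusted p = 0.0252). In ALDH- cells, where the study did not pick it, the value was -1.30 (standard error 0.31, adjusted p = 0.313, with 0.0178% of genes called). In ALDH+ cells it was -1.09 (standard error 0.35, adjusted p = 0.631, with 0% of genes called and 743 genes at an unadjusted p under 0.05). That value rests on 2 control libraries, and was -0.62 without the Rip-cre one and -1.53 without the Pdx-cre one. In ALDH+ cells all 5 knockouts were below both controls, which was so for 4.59% of genes. With the 9 Rip-cre libraries alone the averaged value was -1.68 (standard error 0.23, adjusted p = 0.0303), and Cyb5r3 was 1 of the 0.0810% of genes called. With the 6 Pdx-cre libraries alone it was -0.49 (standard error 0.32, 95% interval -1.27 to 0.28, adjusted p = 0.999).

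As a test that rests on no model of the spread, genotype labels were permuted exactly within sort and driver, for each of the 6 members. It treats libraries as independent, although ALDH- and ALDH+ libraries may have come from the same mice. For Cyb5r3 over all 15 libraries the difference was the most extreme of 360 arrangements (two-sided exact p = 0.00278, the smallest possible). Without the Rip-cre ALDH+ libraries from which the study picked the gene, the difference was -1.11 on the log2 scale (two-sided exact p = 0.0222, smallest possible 0.0111, 90 arrangements). The Rip-cre ALDH- libraries, which may share mice with those left out, stayed in that test. The Pdx-cre libraries alone gave -0.49 (two-sided exact p = 0.222), in a design that cannot go below 0.111. The difference between drivers in the genotype effect was 1.19 on the log2 scale (standard error 0.38, unadjusted p = 0.00728, adjusted p = 0.994 by limma). For this interaction 0% of genes were called and 551 had an unadjusted p under 0.05.

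**Figure D2:**
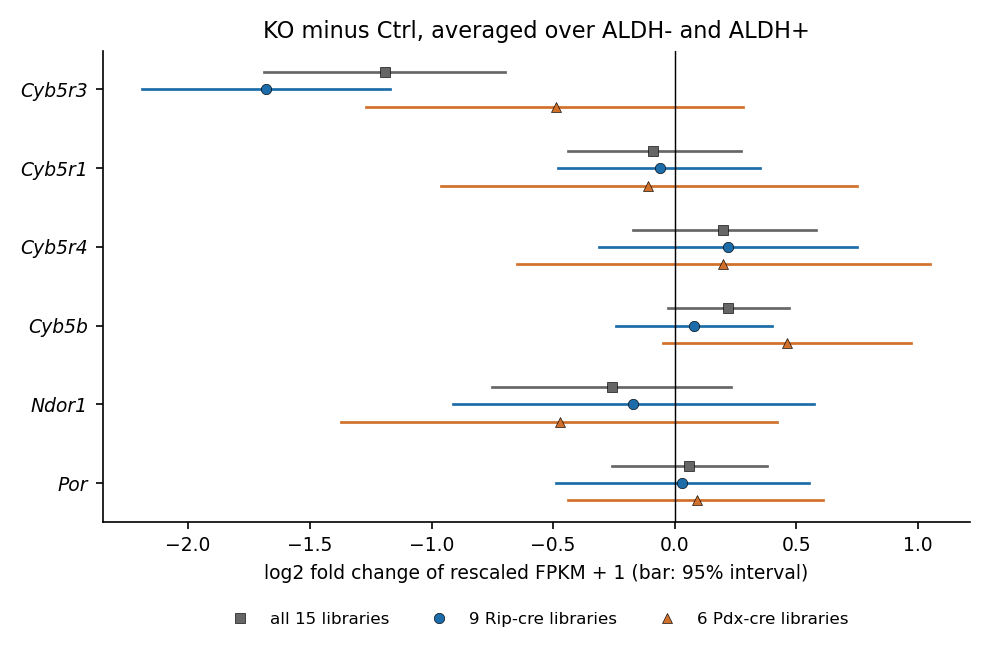
Log2 fold change of knockout over control on the rescaled FPKM + 1 scale, averaged over ALDH- and ALDH+ cells, for each member. Symbols are estimates over all 15 libraries (squares), the 9 Rip-cre libraries (circles) and the 6 Pdx-cre libraries (triangles), with 95% intervals as bars. Cyb5r3 is at -1.19, -1.68 and -0.49, and the intervals of the other 5 members include 0 in each set.

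None of the relatives of Cyb5r3 passed the threshold for genotype. Cyb5r1, the closest in sequence and a membrane-bound reductase as well, had 45.1, 41.6 and 26.9 FPKM in control ALDH- and 42.3 and 31.6 FPKM in control ALDH+ libraries, the last of each being Pdx-cre. Its knockout libraries ranged from 18.2 to 47.2 FPKM around a median of 37.2 FPKM. Knockouts and controls overlapped, with a log2 fold change of -0.09 (95% interval -0.44 to 0.27). Cyb5r4, the fused cytochrome and reductase, was at 7.55 to 12.3 FPKM in controls and 7.73 to 16.6 FPKM in knockouts, a log2 fold change of 0.20 (95% interval -0.17 to 0.58). Cyb5b, the cytochrome b5 of the outer mitochondrial membrane and so a partner of Cyb5r3, had a log2 fold change of 0.22 (95% interval -0.03 to 0.47, adjusted p = 0.715). Its exact p for genotype was 0.0472 over 15 libraries. The Cyb5b value was 0.08 with the Rip-cre libraries alone and 0.46 with the Pdx-cre libraries alone, which hold 2 controls. For Por the log2 fold change was 0.06 (95% interval -0.26 to 0.38), or -0.01 with quantile normalization, with 44.5 to 66.4 FPKM in controls and 35.9 to 87.2 FPKM in knockouts. None of these 4 intervals reaches the Cyb5r3 value of -1.19. Over the 6 members the median log2 fold change was -0.01, beside 0.01 over all genes.

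Ndor1 had higher values in ALDH+ than in ALDH- cells of controls, without passing the threshold, and close to equal values in both sorts of knockout cells. Control ALDH- libraries had 2.92 and 6.51 FPKM with Rip-cre and 4.76 FPKM with Pdx-cre, and control ALDH+ libraries had 15.3 FPKM with Rip-cre and 9.50 FPKM with Pdx-cre. Both ALDH+ libraries lay above all 3 ALDH- libraries, which 14.0% of tested genes also showed. In knockouts the ALDH- values were 6.78, 5.81 and 10.3 FPKM with Rip-cre and 5.28 and 3.66 FPKM with Pdx-cre. For ALDH+ the knockout values were 6.58, 4.39 and 10.5 FPKM with Rip-cre and 5.56 and 4.79 FPKM with Pdx-cre. The knockout ranges overlap almost fully, and their medians, 5.81 and 5.56 FPKM, lie within the control ALDH- range of 2.92 to 6.51 FPKM. The highest knockout value of each sort, 10.3 and 10.5 FPKM, exceeded the 9.50 FPKM of the Pdx-cre control ALDH+ library.

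In limma the ALDH+ over ALDH- log2 fold change of Ndor1 was 1.28 in controls (standard error 0.38, 95% interval 0.46 to 2.09, adjusted p = 0.119), where 1.22% of genes and none of the 6 members were called. In knockouts it was 0.02 (standard error 0.26, 95% interval -0.54 to 0.58), with 0.0178% of genes called. Knockouts differed from controls in this contrast by -1.26 (standard error 0.47, unadjusted p = 0.0159, adjusted p = 0.998), in a test where 0% of genes were called and 476 had an unadjusted p under 0.05. Within ALDH+ cells Ndor1 was -0.89 in knockouts against controls (standard error 0.35, adjusted p = 0.686). The control side rests on 1 ALDH+ library per driver. The Rip-cre ALDH+ libraries of both genotypes were among those on which the study named the gene, so the control, interaction and ALDH+ values are not independent evidence. Among controls the Pdx-cre libraries alone, 1 against 1, gave 0.76 (95% interval -0.70 to 2.22, adjusted p = 1), and the Rip-cre libraries alone 1.59 (95% interval 0.35 to 2.82, adjusted p = 0.247, limma). Acinar and duct markers moved with the control ALDH+ group in the Pdx-cre library only. They summed to 1373 FPKM there, to 0 in the Rip-cre control ALDH+ library and to 2.10 to 27.5 FPKM in control ALDH- cells, and their part in the Ndor1 values was not tested. The summed β-cell markers were lowest in the Rip-cre control ALDH+ library, at 34268 FPKM against a median of 93125 FPKM over all libraries. That sum consisted mostly of Iapp, whose lowest value was 33196 FPKM and whose median was 92729 FPKM. Over the 6 β-cell markers tested, the median ALDH+ over ALDH- log2 fold change in controls was 0.12, with 0 called.

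**Figure D3:**
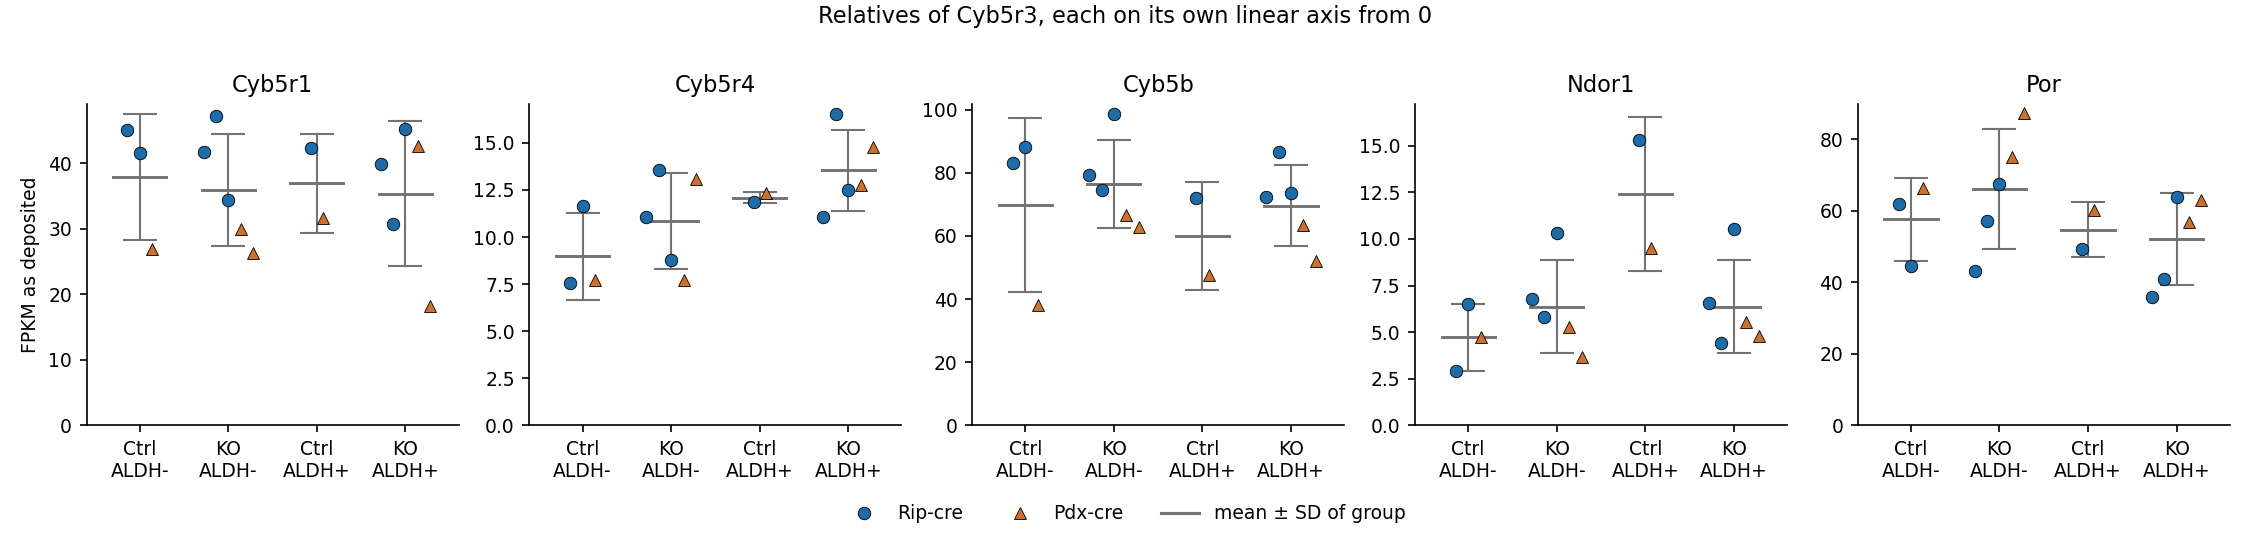
FPKM as deposited of Cyb5r1, Cyb5r4, Cyb5b, Ndor1 and Por in each library, on separate linear axes from 0, grouped by genotype and ALDH sort. Circles are Rip-cre and triangles Pdx-cre libraries, and grey bars give the group mean ± SD. Ndor1 stands at 9.50 and 15.3 FPKM in control ALDH+ cells above all control ALDH- libraries, and for Cyb5b every triangle lies below every circle.

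The other members did not pass the threshold for the sort. Cyb5r3 had an ALDH+ over ALDH- log2 fold change of -0.19 (95% interval -0.69 to 0.31) averaged over genotypes, in a comparison where 5.99% of genes and 0 of 6 members were called, with 1 (Ndor1) at an unadjusted p under 0.05. Quantile normalization turned the Cyb5r3 value to 0.16. For Cyb5r4 the value was 0.36 (standard error 0.18, adjusted p = 0.271), with a mean of 10.1 ± 2.49 FPKM (SD, n = 8) in ALDH- and 13.1 ± 1.88 FPKM (SD, n = 7) in ALDH+ cells. Its exact p for the sort was 0.0569 over 15 libraries. Its 2 control ALDH+ libraries, at 11.9 and 12.3 FPKM, were above the 3 control ALDH- libraries, at 7.55 to 11.7 FPKM. Of all tested genes, 14.0% showed that separation. Por had a log2 fold change of -0.32 in knockouts (standard error 0.17, adjusted p = 0.446). Exact tests of the sort gave p = 0.553 for Cyb5r3, 0.211 for Cyb5b, 0.876 for Cyb5r1 and 0.0889 for Por over 15 libraries.

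The cre driver separated more members than genotype or sort did. Pdx-cre libraries had more Cyb5r3 and less Cyb5b, and both passed the threshold, in a comparison in which 9.73% of genes were called. For Cyb5r3, Pdx-cre over Rip-cre came to 1.06 on the log2 scale (standard error 0.22, adjusted p = 0.00755). Among controls the drivers were barely apart, 2 libraries against 3, with nearest values of 339.9 FPKM for Pdx-cre and 338.8 FPKM for Rip-cre. The share of genes with such a separation in controls was not counted. Among knockouts the gap was wider. Control levels were 340 to 346 FPKM with Pdx-cre and 291 to 339 FPKM with Rip-cre. Knockouts were at 183 to 356 FPKM and 70.9 to 138 FPKM. All 4 Pdx-cre knockouts thus exceeded all 6 Rip-cre knockouts, as 2.55% of genes did. By number, knockout libraries fell in the same order of Cyb5r3 in both sorts, with 218 and 183 FPKM for number 4 and 356 and 283 FPKM for number 5. The numbers are not shown to pair libraries, since same-numbered deviations from the group means correlated at -0.0438 to 0.0704 over tested genes. Taken as 5 numbers, 3 Rip-cre against 2 Pdx-cre, no exact p below 0.1 is possible, and 0.1 was reached.

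Cyb5b was at 38.0 to 66.6 FPKM in the 6 Pdx-cre libraries and at 72.1 to 98.6 FPKM in the 9 Rip-cre libraries, without overlap, which 1.05% of genes showed in this direction. Its log2 fold change was -0.51 (standard error 0.11, adjusted p = 0.00913, limma), and the exact p with driver labels permuted within genotype and sort was 0.00167, the smallest of 600 arrangements. The lowest values, 38.0 and 47.7 FPKM, were those of the 2 Pdx-cre controls. Cyb5r1 was also lower with Pdx-cre at -0.46 (standard error 0.16, adjusted p = 0.0844), and Por was 0.46 (standard error 0.15, adjusted p = 0.0553), so neither passed. Their exact p-values were 0.0183 and 0.0133. Cyb5r4 had a log2 fold change of -0.02 (95% interval -0.38 to 0.34) and Ndor1 of -0.36 (95% interval -0.83 to 0.11).

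Cell type markers moved with the driver as well. Of 6 β-cell markers tested, 5 were lower with Pdx-cre in this comparison (9.73% of all genes called), among them the glucose transporter Slc2a2 (log2 fold change -2.87), Ucn3 (-1.69) and Nkx6-1 (-1.02). Of 5 tested markers of α, δ and PP cells, 4 were higher, among them glucagon (Gcg, 3.13) and somatostatin (Sst, 2.35). The summed FPKM of the 6 α, δ and PP markers was 1147 to 58467 in Pdx-cre and 758 to 2536 in Rip-cre libraries, and that of 7 acinar and duct markers was 14.9 to 1373 against 0 to 12.4. The α, δ and PP excess was not in every Pdx-cre library. Their sum was 18893 to 58467 FPKM in Pdx-cre ALDH- libraries and 10946 FPKM in the Pdx-cre control ALDH+ library. In Pdx-cre knockout ALDH+ libraries it was 1147 and 1961 FPKM, within the 758 to 1980 FPKM of the Rip-cre knockout ALDH+ libraries. Cd68, a macrophage marker, rose by 1.46 on the log2 scale, whereas Ptprc, the pan-leukocyte marker, was at most 0.0214 FPKM. In these bulk libraries fewer cells of a type and less RNA per cell cannot be told apart, and the part of other cells in the Cyb5r3 and Cyb5b values was not tested. Within the Rip-cre libraries, where Cyb5r3 was lowest, α, δ and PP markers summed to 758 to 2064 FPKM in knockouts and 1472 to 2536 FPKM in controls.

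**Figure D4:**
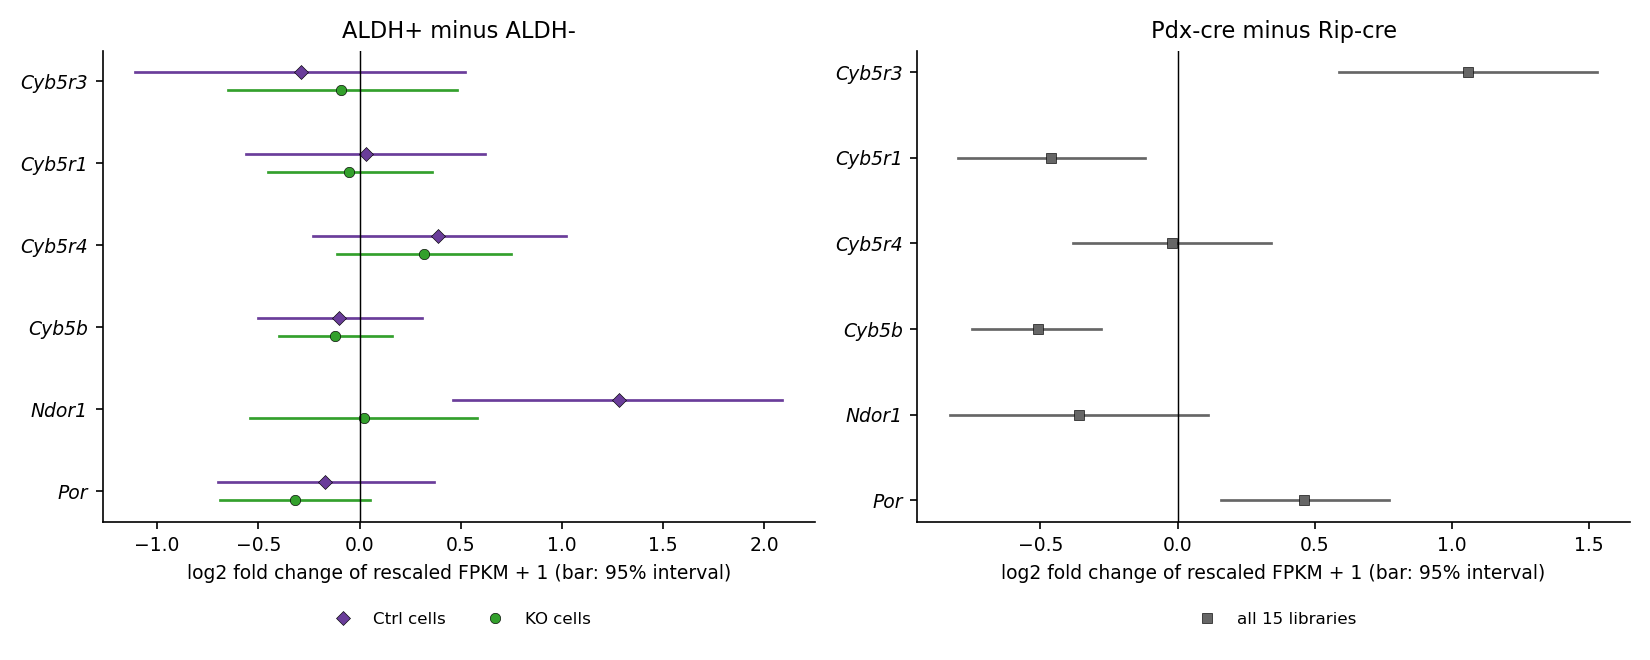
Log2 fold changes on the rescaled FPKM + 1 scale for each member, with 95% intervals as bars. Left, ALDH+ minus ALDH- cells in controls (diamonds) and knockouts (circles), where only the control interval of Ndor1 (0.46 to 2.09) excludes 0. Right, Pdx-cre minus Rip-cre libraries over all 15 libraries, with Cyb5r3 at 1.06 and Cyb5b at -0.51.

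The genes around this electron chain were described from lists. Over the 9 comparisons the share of all genes called ran from 0% to 9.73%, so 0 calls in a short list say little about the list. Among other members of the cytochrome b5 system, 0 of 4 tested passed in any of the 9 comparisons. At an unadjusted p under 0.05 there was at most 1. Cyb5a, the cytochrome b5 of the endoplasmic reticulum (listed as Cyb5), was at 42.8 to 128 FPKM and its knockout over control value was 0.41 on the log2 scale (standard error 0.17, adjusted p = 0.573). Cyb5r2 was at 1.54 FPKM or less in every library and was not tested. Of 10 tested enzymes that take electrons from cytochrome b5, none passed for genotype averaged over sorts, where 0.116% of all genes were called. Their median log2 fold change was 0.02 beside 0.01 over all genes. Sc4mol, the sterol C4-methyl oxidase, was the only 1 of 10 past the threshold for the sort, where 5.99% of all genes were called. It fell by 0.70 in ALDH+ cells on the log2 scale (standard error 0.14, adjusted p = 0.0101), from a median of 66.1 to 45.9 FPKM. Without the Rip-cre control ALDH+ library the call was lost (-0.55, adjusted p = 0.168), as it was with the Pdx-cre libraries alone (-0.54, adjusted p = 0.834). The 8 genes of cytosolic iron-sulphur assembly, the pathway of Ndor1, had 0 calls in all 9 comparisons (0% to 9.73% of all genes called). At most 3 of the 8 had an unadjusted p under 0.05 in any comparison.

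Of all genes 9.73% were called for the driver. Of 4 enzymes fed by Por, Hmox1 (haem oxygenase) rose with Pdx-cre by 1.38 on the log2 scale (adjusted p = 0.00759, limma). Its median was 57.1 FPKM in Rip-cre and 202 FPKM in Pdx-cre libraries. It is also on the list of Nrf2 targets, of which 2 of 7 rose with Pdx-cre, the other being Srxn1 (0.61, adjusted p = 0.0339). For genotype averaged over sorts 0 of 7 passed, with 0.116% of all genes called. The Srxn1 call was lost in 12 of 22 alternatives, among them quantile normalization (0.50, adjusted p = 0.0901). The 10 other flavoprotein reductases and the 2 tested diflavin reductases had 0 calls in all 9 comparisons (0% to 9.73% of all genes called), with at most 2 at an unadjusted p under 0.05.

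Promoter sequences from RefSeq (GRCm38.p6, 250 bases before to 50 after the start) were matched for 5 of the 6 members, Cyb5r1, Cyb5r4, Cyb5b, Ndor1 and Por. The promoter set used held no entry for Cyb5r3, the proposed Foxo target, so its promoter was not searched. GTAAACA, a FOXO site, was searched on both strands and occurred in none of the 5, against 3.65% of 32851 promoters. With so low a share, no match among 5 promoters says little about these genes. TGACNNNGC, the core of the antioxidant response element, occurred in 12.4% of promoters and in 1 of the 5. It lay 48 bases before the start of Cyb5r4, and that window is shown because it holds the only match, with the match in capitals (chr9:87021971-87021999, plus strand).
Cyb5r4 promoter window: gcctttcctcTGACTCCGCccccgccccg

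The genes with the pattern most like Cyb5r3 over the 15 libraries, by Pearson correlation of log2 values, were Gnpda1 (0.92), 5330426P16Rik (0.91), Galntl4 (0.89), Pls3 (0.86) and Pygb (0.84). For Ndor1 they were LOC106740 (0.90), Zfp169 (0.89), Cep78 (0.86), Tardbp (0.84) and Wbp7 (0.83). The libraries share genotype, sort and driver, so these correlations describe the pattern and were not tested. Among the members, Cyb5r3 correlated with Cyb5b at -0.61 and with Por at 0.41. Cyb5r1 and Cyb5b correlated at 0.49, and the other pairs lay between -0.41 and 0.28.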

How the data were processed

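RNA of sorted RFP+ islet cells was poly-A selected and prepared with TruSeq by the authors, and the submitters' processing notes name bcl2fastq 1.8.4, TopHat2 2.0.4 and mm9. For each library the authors deposited FPKM values and confidence bounds by gene, in the column layout of Cufflinks. The quantifier and its version are not given in the sources used here. The study tested read counts, which were not analysed here, so limma took the place of a count test. Fragments were estimated from the interval widths under Poisson counting. Under 500 fragments only 66.2% of values were within 0.02 of a whole number, so no count test was run. Entries with a repeated symbol (712) or with a status other than usable (63) were left out, leaving 22924 genes.

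Rescaling between libraries used trimmed mean of M-values factors without weights (trimming 30% of M and 5% of A). After adding a pseudocount of 1, log2 values were fitted with limma 3.58.1 (R 4.3.3, trend) on 4 groups plus cre driver, for the 11253 genes whose rescaled FPKM averaged 1 or more. Fold changes of low genes are understated on this scale. Tests were two-sided, with Benjamini-Hochberg adjustment over all genes within each of 9 comparisons and a threshold of 0.05. Exact permutation tests used Python 3.11.15. The procedure was tested on simulated data.

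Groups and drivers came from the labels. The members, the gene lists and the tests were chosen with earlier results of these data known. Named genes were the 6 members, list genes past the threshold (up to 5 per list), Cyb5a, Cyb5r2, Foxo1, Foxo3, Foxo4 and the 5 genes most like Cyb5r3 and Ndor1. Aldh1a3, Iapp and Ptprc were named after their values were seen. Exact tests on subsets and of the driver were added after seeing the data. Alternatives covered the pseudocount, filter, scaling, driver, replicate block, transcript length and each library left out. Coding sequences came from GENCODE M21, and residues were aligned with Biopython 1.88. In the tables' mm9 coordinates no other entry overlaps a member. Cyb5r3 spans chr15:82983932-83002638, Cyb5r1 chr1:136302567-136308315, Cyb5r4 chr9:86916864-86972609, Cyb5b chr8:109674561-109711370, Ndor1 chr2:25100333-25110934 and Por chr5:136165084-136211195.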

Additional observations from a re-analysis of the deposited data

Results flagged for a closer look

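The response of Cyb5r3 to Foxo loss differed between drivers by 1.19 on the log2 scale (limma, unadjusted p = 0.00728, adjusted p = 0.994), with Rip-cre knockouts at 30.1% and Pdx-cre knockouts at 75.9% of their control means. Foxo1 itself was low in both sets of knockouts. α, δ and PP markers summed to 1147 to 30747 FPKM in the Pdx-cre and 758 to 2064 FPKM in the Rip-cre knockouts, and their part in the difference was not tested. In knockout ALDH+ cells alone these sums were 1147 to 1961 FPKM with Pdx-cre and 758 to 1980 FPKM with Rip-cre. Cyb5r3 was at 183 to 283 FPKM and 80.6 to 110 FPKM in the same libraries.

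The ALDH+ minus ALDH- difference of Ndor1 differed between knockouts and controls by -1.26 on the log2 scale (limma, unadjusted p = 0.0159, adjusted p = 0.998). Both values passed no adjusted threshold and were noted for their unadjusted p among 12 interactions of the 6 members. No knockout library lay far enough from its group to stand out by Dixon's test in the 12 groups of 5 checked, of which chance flags about 1 in 20. Each group held libraries of both drivers, so a gap between drivers widens its range and the check can miss an outlying library.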

How the results depend on the processing

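Recomputing 33 single-gene differences under the alternatives gave 786 values, of which 746 kept direction and side of the threshold. The Cyb5r3 genotype difference averaged over sorts passed with quantile normalization (-1.34, adjusted p = 0.0257), with the Rip-cre libraries only (-1.68) and without knockout ALDH- replicate 5 (-1.30, adjusted p = 0.0252), so that 1 member instead of 0 passed in each. Its values without single libraries ran from -1.42 to -0.96, and 0 to 1 members passed. The ALDH difference of Cyb5r3 turned to 0.16 with quantile normalization, and without single libraries it ran from -0.43 to 0.03. That of Ndor1 in knockouts turned to -0.02 with quantile normalization, -0.10 with Rip-cre only and -0.04 with the length trend removed, and ran from -0.13 to 0.17 without single libraries. Por for genotype turned to -0.01 with quantile normalization and ran from -0.01 to 0.12 without single libraries, and Cyb5r4 for the driver ran from -0.10 to 0.09. Sc4mol, Srxn1 and Foxo1 lost calls as given above. For the driver, Cyb5r1 passed without knockout ALDH+ replicate 4 (-0.60), and Por with a filter at 5 (0.46), without knockout ALDH- replicate 3 (0.50) and without knockout ALDH+ replicate 3 (0.54). Cyb5r3 and Cyb5b passed for the driver under all 22 alternatives. The cause of these changes was not tested. A replicate block on genotype and number gave -1.19 for Cyb5r3 (adjusted p = 0.0976) and changed no call of a member. The numbers are not shown to pair the libraries, since same-numbered knockout deviations correlated at -0.0438 to 0.0704.

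Counts over all genes moved more. For genotype averaged over sorts, 13 became 0 with Pdx-cre only, 6 with no cre driver and 40 with no filter, and ran from 1 (without control ALDH+ replicate 2) to 15 without single libraries. In ALDH+ cells 0 became 33 with no filter and 4 with Rip-cre only, and in ALDH- cells 2 ran from 0 to 4. For ALDH in controls, 137 became 444 with only the groups compared, 52 with quantile normalization, 19 with Rip-cre only, and 0 with the length trend removed, no cre driver or Pdx-cre only. Without single libraries it ran from 0 (any control ALDH- library) to 253. In knockouts 2 ran from 0 to 7. Averaged over genotypes, 674 ran from 3 (without control ALDH+ replicate 1) to 842. Quantile normalization changed its split from 250 higher and 424 lower to 257 and 137. The driver's 1095 ran from 703 to 1269, and its split of 639 higher and 456 lower became 475 and 569. No filter gave 16 and 12 genes for the interactions of genotype with sort and driver, against 0.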
